A study of Macaca mulatta with 6 samples.

Results

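The 500 windows described here are the 2000 bp stretches of the rhesus macaque (Macaca mulatta) autosomes in which a pair of digest signals was most skewed towards its first member in haploid embryonic stem cells (ESC) relative to sperm. Each CCGG site listed in both cell types was given a first-pair contrast per cell type, the difference of the first and the second signal divided by their sum, which runs from -1 to 1. D is the contrast in haploid ESC minus that in sperm, less the median of that difference over 1215827 shared sites on chromosomes 1 to 20 (0.0250). Windows were laid from position 1 and needed 5 or more shared sites. Of 24080 such windows, the 500 with the highest mean D were taken (2.08%), and they held 2831 of the 136590 shared sites of all such windows. The members were thus chosen by the contrast itself. Their contrasts, their first and second signals and every first-pair call below are therefore descriptions of the choice and support nothing.

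DNA methylation adds a methyl group to cytosine, mostly where a guanine follows, and the genomes of egg and sperm carry it at different places. At imprinted regions such a parental difference persists after fertilization and keeps a gene active from a single parental copy. A parthenogenetic cell line comes from an egg alone and holds no paternal copy; the study's title gives such an origin for its haploid ESC. CCGG is the recognition site of a pair of restriction enzymes that differ in their response to methylation: HpaII is blocked by it, while MspI cuts through it. Adding a glucose to hydroxymethylated cytosine with a glucosyltransferase makes such sites resistant to MspI as well.

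The study (HMST-Seq, which sequences tags beside cut sites) made 6 libraries, 3 from haploid ESC and 3 from sperm. In each cell type the labels name HpaII, BGT_MspI and MspI digests, with 1 library each. The labels give no animal, age, sex, passage or number of cells, and they do not say whether the haploid ESC are 1 line. With nothing replicated, no value has a replicate error and no difference between the cell types could be tested.

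Each deposited table holds 3 distinct signal columns without names, so which digest each belongs to is unknown. They are called the first, the second and the third signal after their order in the table. The first pair sets the first signal against the second, and the second pair sets the second against the third. The first signal stood apart in both tables: its Spearman's rho with the second was 0.383 over the sites listed for haploid ESC and 0.269 over those listed for sperm, while the second and the third signal ranked together at 0.885 and 0.929. These correlations are across sites of 1 library pair each and describe the columns. That the columns stand in the same order in both tables is assumed. A high contrast therefore means only that the first signal exceeded the second, and no level of methylation is derived from it. The read depth behind the signals is unknown.

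Member windows combined a high first signal in haploid ESC with a low first signal in sperm, while the other signals lay near their usual levels. The median member had a mean first signal per site of 61.5 in haploid ESC, against a median of 29.0 over all 24080 windows, and sat at the 76.4th percentile of them. In sperm its first signal was 14.8 against 22.0, at the 24.0th percentile. The first signal lay on opposite sides of the common level in the 2 cell types, which the rule favours. The second signal moved less: 21.1 in haploid ESC (all windows 22.8) and 28.8 in sperm (all windows 25.2), at the 42.2nd and the 58.6th percentile. The third signal, the one column that the rule did not use, was 25.9 in haploid ESC (all windows 24.9) and 30.1 in sperm (all windows 26.6), at the 54.2nd and the 57.8th percentile. The 80% ranges of members and of all windows overlapped in every column, also in the first.

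**Figure D1:**
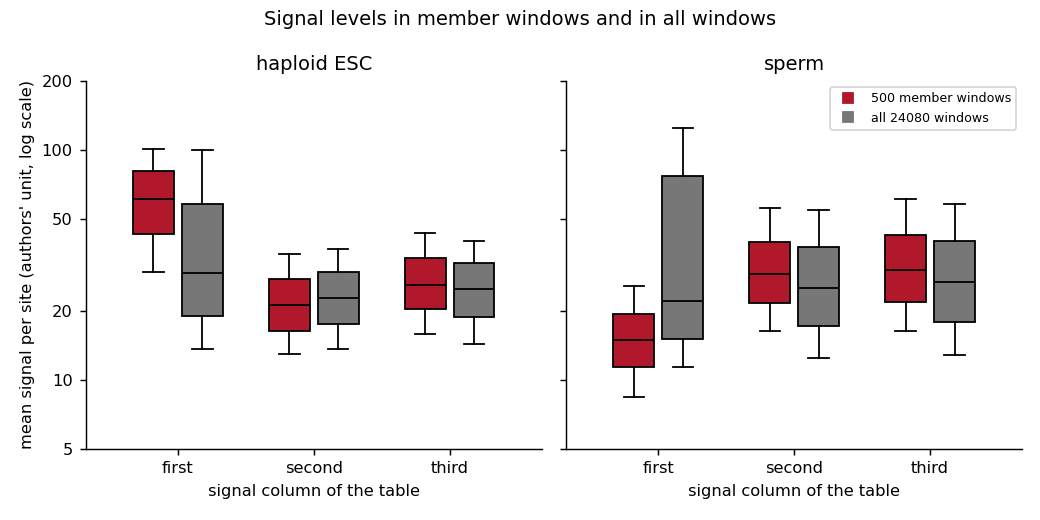
Mean signal per site of 2 kb windows in haploid ESC (left) and sperm (right), in the authors' unit on a log axis. Boxes give the quartiles and median over the 500 member windows (red) and all 24080 windows (grey), whiskers the 10th and 90th percentiles; the first signal has its member median at 61.5 in haploid ESC and at 14.8 in sperm, while the other columns of members and all windows lie close together.

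The contrast in haploid ESC had a median of 0.431 over members (lowest 0.0773, highest 0.811), against 0.117 over all windows. In sperm it was -0.261 (lowest -0.637, highest 0.145), against 0.0234. All 500 members had a mean contrast above 0 in haploid ESC and 482 (96.4%) had one below 0 in sperm, a combination found in 4736 of all windows (19.7%). The other 18 had a sperm contrast of 0.00161 to 0.145 and were carried by haploid ESC, where their contrast ran from 0.587 to 0.739. The members' mean D ran from 0.547 to 1.13 with a median of 0.631. For comparison, the 500 windows at the other end had a median D of -0.783, further from 0 than the members lay.

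The members were the edge of a continuous cloud and not a separate cluster. The last windows taken, with mean D of 0.5471 at chr5:2156001-2158000, 0.5471 at chr1:10610001-10612000 and 0.5469 at chr10:4198001-4200000, were followed without a gap. The next in order had 0.5469 at chr13:125962001-125964000, 0.5467 at chr4:37374001-37376000 and 0.5465 at chr16:6744001-6746000. Across all windows the contrasts of the cell types went together (Pearson's r = 0.664 over 24080 windows, a description, since windows share their libraries), and members lay off that trend.

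**Figure D2:**
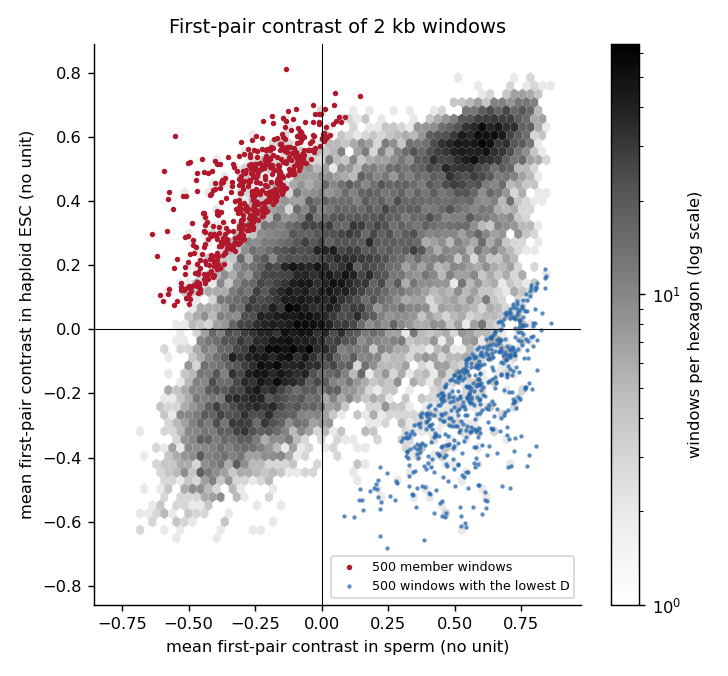
Mean first-pair contrast of each 2 kb window in sperm (horizontal) and haploid ESC (vertical), both without unit; grey hexagons count all 24080 windows on a log colour scale, red points are the 500 members and blue points the 500 windows with the lowest D. The members border the main cloud along a diagonal, with haploid ESC contrasts of 0.0773 to 0.811 and sperm contrasts of -0.637 to 0.145.

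Members differed in which cell type set them apart. In 88 the haploid ESC contrast lay above the 90th percentile of all windows while sperm did not lie below the 10th. Their median contrasts were 0.600 and -0.0890, and their first signal was 82.9 in haploid ESC and 17.6 in sperm. In 172 the reverse held, with median contrasts of 0.260 and -0.423 and first signals of 44.4 and 12.0. The largest class, 239 windows (47.8%), was in neither outer tail and had intermediate contrasts of 0.449 and -0.226. A single window, the first in rank, was in both tails. These classes were drawn after the values were seen.

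That window, on chromosome 1 from 12354001 to 12356000, had 5 shared sites within 583 bp (12355145 to 12355727) and a mean D of 1.13 ± 0.257 (SD over its 5 sites, which are not replicates). Its mean signals per site were 90.3, 22.8 and 28.6 in haploid ESC and 7.48, 24.0 and 25.6 in sperm, in the order of the columns. Site by site the first signal ran from 81.2 to 101 in haploid ESC and from 2.99 to 16.3 in sperm, a separation that the choice of the highest D favours. The second signal ran from 13.2 to 28.7 in haploid ESC and from 8.27 to 44.3 in sperm. In the authors' deposited tables the first-pair adjusted p of its 5 sites reached at most 4.7e-13 for haploid ESC and 0.033 for sperm, all 5 with the first signal higher in the former and lower in the latter. None of the 5 was called for the second pair in either of the authors' deposited tables. Over the sites of all windows this share was 14.0% in haploid ESC and 11.3% in sperm.

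The other windows of the highest 10 repeated this pattern with different weights. On chromosome 13 from 776001 to 778000, 6 sites had mean signals of 49.9, 14.6 and 29.4 in haploid ESC and 8.39, 39.4 and 40.8 in sperm, and a mean D of 1.06. Here the second signal was also low in haploid ESC and high in sperm. Of its 6 sites, 4 were called for the second pair in the authors' deposited haploid ESC table and 2 in their sperm table. Of the sites of all windows, 14.0% and 11.3% were so called. On chromosome 17 from 93492001 to 93494000, 7 sites had signals of 88.7, 29.2 and 35.6 in haploid ESC and 17.2, 100 and 122 in sperm (D = 0.979). The high values of the second and the third signal in sperm came from part of the window: at 93493312 they were 309 and 365, and at 93492271 they were 9.37 and 6.45. On chromosome 13 from 71850001 to 71852000 the haploid ESC contrast was the highest of all windows, 0.811, with signals of 99.6, 13.0 and 17.7. In sperm this window had 18.4, 23.5 and 24.4 and a contrast of only -0.133, with 2 of its 5 sites above 0.

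The remaining 6 of the 10 had mean D between 0.912 and 0.996. They were chr13:21764001-21766000, chr14:1866001-1868000, chr9:55732001-55734000, chr17:3856001-3858000, chr19:51860001-51862000 and chr10:36340001-36342000. Their first signal was 36.1 to 101 in haploid ESC and 6.60 to 22.0 in sperm. In each of the 10 windows every site had D above 0 (54 of 54 sites), which held for 7.03% of all windows. By the authors' deposited tables, 39 of the 54 were called with the first signal higher in haploid ESC and lower in sperm. Of the sites of all windows 5.86% were so called. These values follow from taking the top of the ranking. Genes and sequences at these windows were not analysed here, because the genome build behind the positions is not known.

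**Figure D3:**
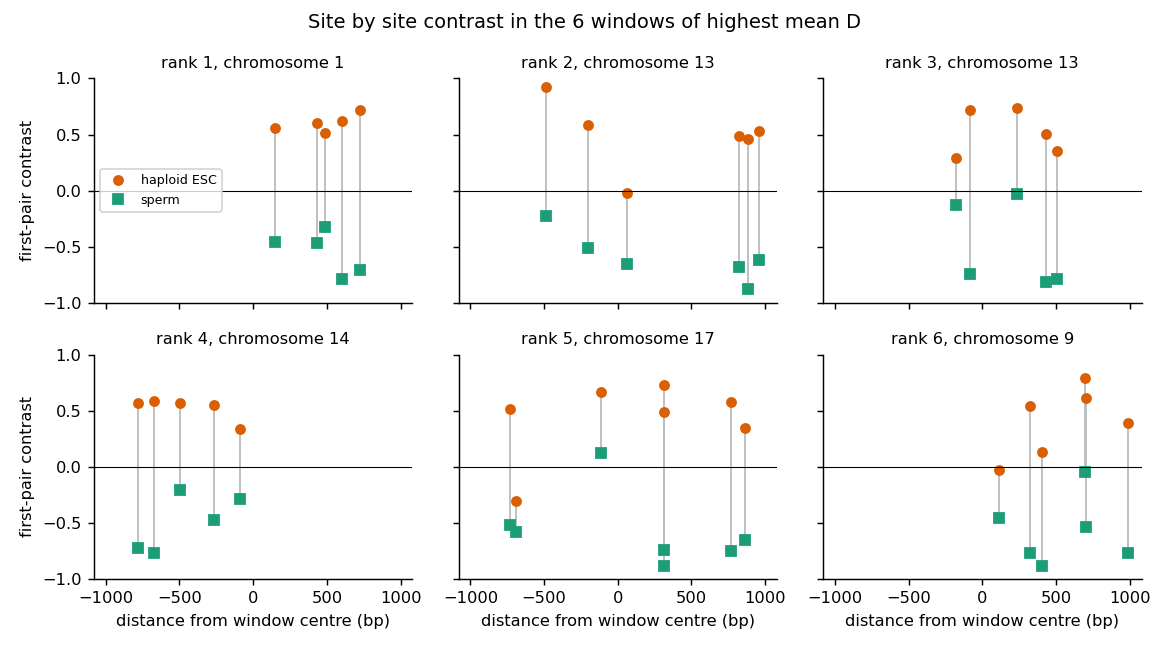
First-pair contrast (no unit) of each shared site in the 6 windows of highest mean D, by distance from the window's centre in bp; orange circles are haploid ESC, green squares sperm, and a grey line joins the values of a site. Every site has its haploid ESC value above its sperm value, and in the windows of rank 1, 3 and 4 the values lie on opposite sides of 0 throughout.

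Sites within a window did not all carry the difference equally. In 334 of the 500 members every site had D above 0, as in 1693 (7.03%) of all windows. Over all members 2654 of 2831 sites had D above 0 (93.7%). The median D of a site was 0.682 in members and 0.0199 over all windows. The SD of D among the sites of a window had a median of 0.394, against 0.321 over all windows. Leaving out each window's highest site, which lowers any mean, moved the median of mean D from 0.631 to 0.531 over members and from 0.0288 to -0.0580 over all windows. The drop was thus of like size in both. Without its highest site, the mean D still reached that of the lowest member (0.547) in 220 of the 500 members (44.0%).

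Of the 8 members with 9 shared sites, the most of any member, 5 with the highest mean D among them are described. On chromosome 3 from 40862001 to 40864000 the mean signals were 65.8, 27.2 and 37.9 in haploid ESC and 11.0, 32.0 and 38.9 in sperm, with D above 0 at all 9 sites (mean 0.740). On chromosome 5 from 132001 to 134000 they were 110, 33.9 and 35.1 against 36.5, 45.9 and 45.6 (mean D 0.729, 9 of 9 sites). On chromosome 20 from 1216001 to 1218000 they were 103, 30.4 and 38.2 against 19.7, 27.3 and 37.8 (mean D 0.683, 9 of 9 sites). In these 3 windows the first signal was the highest of the 3 in haploid ESC and the lowest in sperm. The window on chromosome 7 from 168588001 to 168590000 differed, with 34.7, 21.3 and 36.9 in haploid ESC and 15.0, 55.9 and 60.0 in sperm (mean D 0.694). There the second signal was itself higher in sperm, and the haploid ESC contrast was 0.239. The fifth, on chromosome 16 from 28390001 to 28392000, had a mean D of 0.703 with 8 of 9 sites above 0.

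Calls of single sites followed from the choice of members. A call is an adjusted p below 0.05 in the authors' deposited table. Member sites were called with the first signal higher in the authors' deposited haploid ESC table at 80.1% (2267 of 2831), against 48.5% of the sites of all windows. They were called in the authors' deposited sperm table with the first signal lower at 58.5% (1657), against 31.2%. Both at once held for 1241 sites (43.8%) in the authors' deposited tables, against 5.86%, and the opposite combination for 1 site, against 3.45%. Sites called higher in both made up 12.0% of member sites in the authors' deposited tables, against 32.4%, and sites called lower in both 5.12%, against 17.3%. By the authors' deposited tables, 239 members had 3 or more sites called opposite ways, against 1.65% of all windows. Every site was so called in 2 members, on chromosomes 1 and 10, the only ones among all windows in the authors' deposited tables (0.00831%). In 11 members no site was so called in the authors' deposited tables, against 75.4% of all windows.

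Low first signals were common among the members' sperm values. The first signal in sperm came in steps, the lowest near 3. At this lowest step, below 4.5, were 16.1% of member sites, against 8.29% of the sites of all windows. In haploid ESC 0.212% of member sites were at the lowest step, below 2.5, against 2.40%. The rule favours a low first signal in sperm and a high one in haploid ESC, so these shares describe the choice. The sperm contrast of a site at the lowest step depends mostly on its second signal. The first-pair signals summed to under 10 at 3.74% of member sites in sperm and at 1.24% in haploid ESC, against 3.06% and 2.39% over all windows. Both cut-offs were set after the values were seen. All intervals given below cover counting error alone and treat sites of 1 library as independent, which they are not.

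The second pair was called more often at member sites than elsewhere in haploid ESC, while the shares were close in sperm. The authors' deposited haploid ESC table called 652 member sites (23.0%, 95% Wilson interval 21.5% to 24.6%) at an adjusted value below 0.05, against 14.0% of the sites of all windows. Most of these, 583 (20.6%, against 10.5%), had the third signal above the second in the authors' deposited table. The authors' deposited sperm table called 338 sites (11.9%, 10.8% to 13.2%), against 11.3%, and 232 of them had the third signal higher (8.19%, against 7.94%). In the windows with the lowest D the authors' deposited tables called 10.8% of sites in haploid ESC and 16.2% in sperm. There it was sperm that lay above the share of all windows. The second signal is part of both pairs. A high first-pair contrast favours sites with a low second signal in haploid ESC, so these calls are not independent of the rule and are given as a description. When the third signal took the place of the second, the members' median contrast was 0.347 in haploid ESC and -0.266 in sperm, against 0.0816 and 0.00221 over all windows. The haploid ESC value was thus lower than with the second signal (0.431), and the sperm value was almost the same (-0.261).

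Sites just outside a member, which did not enter that window's mean, had a smaller mean D that fell with distance. The mean D of shared sites within 250 bp of a member's edge was 0.219 (362 sites), against 0.0161 around all windows (17687 sites, a site near several windows counting each time). It was 0.154 at 501 to 1000 bp, 0.104 at 1001 to 2000 bp and 0.0877 at 2001 to 5000 bp, against 0.0209, 0.0323 and 0.0366. At 50001 to 100000 bp it was 0.0442 against 0.0239. The values around members were thus the higher ones in all 9 distance classes. Both tables took part: within 250 bp the mean contrast was 0.220 in haploid ESC (around all windows 0.115) and -0.0233 in sperm (0.0743). Of the sites within 250 bp, 14.6% were called in the authors' deposited tables as higher in haploid ESC and lower in sperm (around all windows 5.64%), and 6.95% at 2001 to 5000 bp (5.76%).

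The neighbouring 2 kb windows had a median D of 0.119 (896 windows with at least 1 shared site), against 0.0164 next to all windows, and 68.4% of them had D above 0, against 52.6%. Without the neighbours that are members themselves it was 0.117 (888 windows). Around the 500 windows with the lowest D the mean D was -0.451 within 250 bp and -0.0302 at 2001 to 5000 bp. These sites come from the same libraries as the members and are no replicate of the difference. The members were taken for their high D, so a drop from inside to outside is built into the choice. How far the difference reached along the chromosome cannot be told from that drop.

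**Figure D4:**
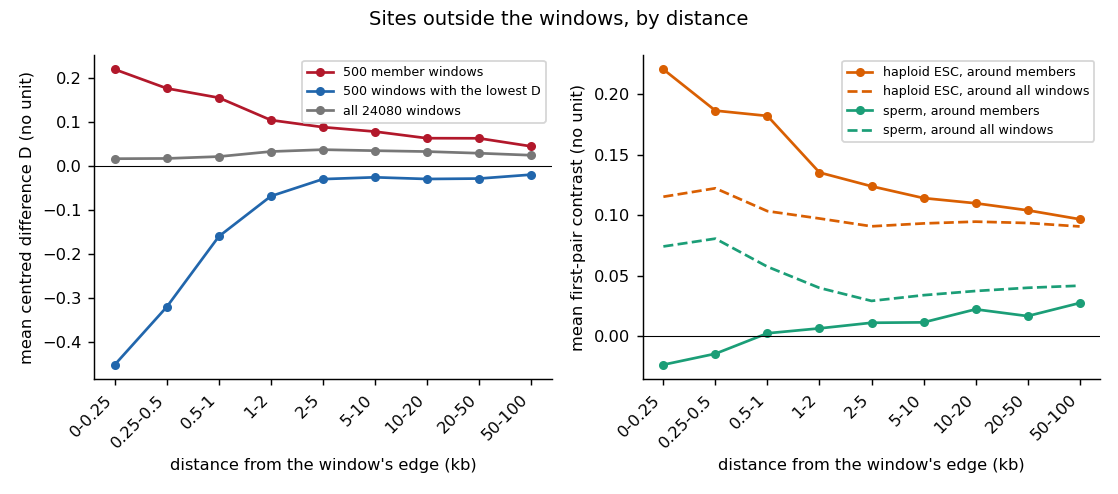
Left: mean D (no unit) of shared sites outside the windows by distance from the window's edge in kb, around the 500 members (red), the 500 windows with the lowest D (blue) and all 24080 windows (grey). Right: mean first-pair contrast per cell type around members (solid) and around all windows (dashed); around members D is 0.219 within 250 bp and 0.0877 at 2001 to 5000 bp.

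Few members touched each other, and few could. Of the 896 neighbouring windows with at least 1 shared site, 167 had the 5 or more sites that a member needs. Next to all windows these numbers were 42662 and 8686. Whether members touched more or less often than other windows was not tested. The 500 windows formed 496 regions, of which 492 were single windows and 4 were pairs. The pair with the highest mean D (0.770) lay on chromosome 9 from 55730001 to 55734000 and included the sixth window in rank. Its first window had a sperm contrast of 0.00841 and its second one of -0.578, so the neighbours differed in how sperm took part. The pair on chromosome 1 from 21454001 to 21458000 (mean D 0.713) changed on the other side, with haploid ESC contrasts of 0.591 and 0.130. The remaining pairs were on chromosome 16 from 44578001 to 44582000 (0.637) and on chromosome 19 from 3584001 to 3588000 (0.574).

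Over longer distances, 144 members (28.8%) had another member at most 100 kb away. Windows with 5 or more shared sites lay close together in general: 21923 of all 24080 (91.0%) had another such window at most 100 kb away. That share counts neighbours among all windows and is no like measure for members. Whether members lay closer together than other windows was not tested. The group with the most members, singled out after its values were seen, held 5 windows with 31 shared sites on chromosome 1 from 5590001 to 5712000. Their haploid ESC contrasts ran from 0.125 to 0.508 and their sperm contrasts from -0.575 to -0.328, so sperm was low throughout while haploid ESC varied. Groups of 4 lay at chr5:46001-226000, chr7:164566001-164628000, chr11:132660001-132816000 and chr18:1236001-1336000. In the group on chromosome 11 the sperm contrasts were closer to 0, between -0.195 and -0.144, and the haploid ESC contrasts were 0.467 to 0.600.

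All 20 autosomes held members, from 8 on chromosome 18 to 56 on chromosome 1, roughly in step with their windows. As a share of a chromosome's own windows, members made up 2.62% on chromosome 13 (27 of 1031) and 2.61% on chromosome 17 (11 of 421), the highest values, against 2.08% overall. The lowest were 1.07% on chromosome 8 (10 of 934, 95% Wilson interval 0.583% to 1.96%) and 1.11% on chromosome 6 (9 of 811, 0.585% to 2.10%). Only the interval of chromosome 8 leaves out 2.08%. It was picked as the lowest of 20, and the interval covers counting error alone. Within 5 Mb of the first or last shared site of a chromosome lay 34.2% of members, 36.7% of all windows and 26.2% of the windows with the lowest D. Within 1 Mb these shares were 7.2%, 8.97% and 9%, and within 10 Mb they were 52.6%, 50.9% and 38%. The order of the 3 sets thus changed with the distance chosen.

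**Figure D5:**
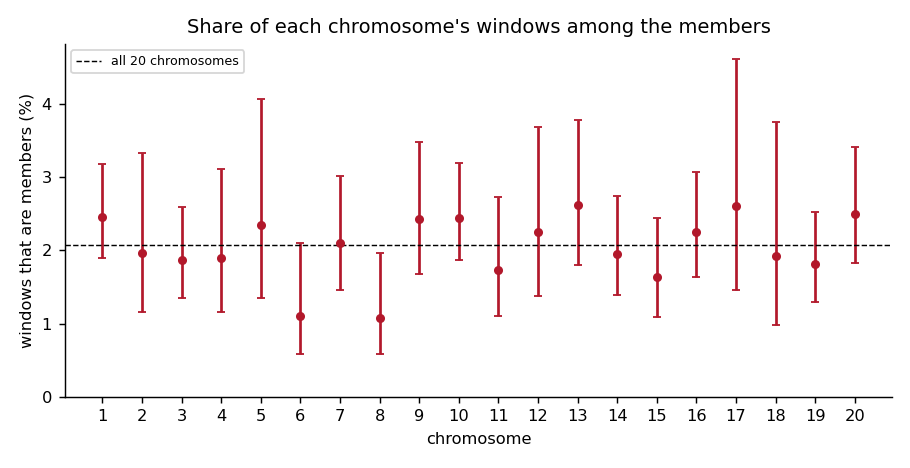
Percent of each autosome's windows with 5 or more shared sites that are members, with 95% Wilson intervals (counting error only) and the value for all 20 chromosomes as a dashed line at 2.08%. Values run from 1.07% on chromosome 8 to 2.62% on chromosome 13, and the interval of chromosome 8 alone lies below the line.

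Members resembled other windows in how many sites they held, and their sites were closer together. The median was 5 shared sites in members and in all windows, and 57.8% of members and 57.9% of all windows had exactly 5. No member had 10 or more, against 149 of all windows (0.619%). The first and last shared site of a member were a median of 1324.5 bp apart, against 1464 bp, and neighbouring sites were 213 bp apart, against 244 bp. The windows with the lowest D were at least as compact (1215.5 bp and 199 bp), so closeness was common to both ends of the scale.

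Sites that a single table listed cannot enter the contrast and were few. Within member windows 98 of 2952 listed sites were in the haploid ESC table alone (3.32%, 95% Wilson interval 2.73% to 4.03%), against 2.78% in all windows, which that interval includes. In the sperm table alone were 23 (0.779%, 0.520% to 1.17%), against 1.36%. In the windows with the lowest D the balance was the other way round, with 1.08% and 2.88%. The sum of both kinds was 4.10% in members and 4.14% in all windows. In the windows with 8 or more shared sites the counts were too small to tell whether this order held. There 5 of 280 listed sites of members were in the haploid ESC table alone (1.79%, 0.765% to 4.11%, all such windows 2.17%). Another 3 were in the sperm table alone (1.07%, 0.365% to 3.10%, all such windows 1.03%). Both intervals include the share of all such windows and that of all members. How sites came to be listed is not stated in the labels or the tables.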

How the data were processed

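The 6 HMST-Seq libraries were read single-end over 50 bp, per the labels' protocols. The deposited tables (1 per cell type, no header) give per CCGG site signal values; the normalization by the authors, the aligner, the counting and the depth were not given in the sources used here. Besides, the deposited tables hold p-values (first pair with an adjusted p-value) and, for the second pair, an adjusted score that reaches 1.03. The column used for the second signal occurs again as column 7 in every row, so 2 repeated columns, 1 per table, were left out. The submitters' processing notes name hg19, which chromosomes 1 to 20 and X do not match, so no gene or sequence was assigned and positions are as deposited.

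Sites of both tables were matched by position, and windows were ranked by mean D. Percentiles, intervals (Wilson, 95%) and flanks were computed with Python 3.11.15, pandas 2.3.3, NumPy 2.4.6 and SciPy 1.17.1 (figures with matplotlib 3.10.9); the ranking was tested on simulated data. Named were the 10 members of highest mean D, the 5 with the most sites, touching members and 3 on each side of the limit. Other minimum site numbers, window sizes and starts, low-signal filters, summaries over sites, scales and centrings were tried. The members and comparisons were chosen with earlier results of these data known. No statistical test was made, because each digest had 1 library.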

Additional observations from a re-analysis of the deposited data

How the results depend on the processing

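Which windows rank highest depended on how windows were drawn and on how signals were filtered and summarised, while the levels of those chosen changed less. Each setting again took the 500 highest windows, so like levels follow in part from the choice. Of the 500 members, 475 stayed with centring by chromosome, 471 with ranks, 434 with a log2 ratio (pseudocount 1), 418 with signals summing to at least 10, 353 with medians over sites, and 347 with the third signal in place of the second, an alternative added after the values were seen. Fewer stayed with signals summed over the window (312), sums of at least 20 (234), a shift by 1000 bp (179), 5000 bp windows (131), 1000 bp windows (99), at least 3 sites (63) and at least 8 sites (33). The last follows from its construction, since 33 members have so many sites, and 1460 windows were eligible. For shifted or resized windows, a member counted as kept if 1000 bp of it were covered. Median D was 0.828 with at least 3 sites, 0.237 with at least 8 and 0.453 in 1000 bp windows, and the median haploid ESC contrast 0.0815 with at least 8 and 0.249 in 1000 bp windows. In the other settings these medians, and in all settings the sperm contrast, moved by less than 1 SD over members. At an adjusted value below 0.001 the second pair was called in the authors' deposited tables at 6.57% of member sites in haploid ESC (all windows 2.33%) and 2.76% in sperm (2.81%); at an unadjusted p below 0.05 these were 48.1% (39.2%) and 36.1% (35.9%). Sites listed in 1 table alone made up 2.86% in members with 8 or more shared sites (all such windows 3.20%). Counts for the separate tables were too small there to compare. Depth is unknown, and no paired analysis was possible because each digest had 1 library.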

Other observations

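The X chromosome, which the rule leaves out, had 331 windows with 5 or more shared sites. Of these, 3 (0.906%, 95% Wilson interval 0.309% to 2.63%) had a mean D at or above that of the last member, and 34 lay at or below the last of the 500 autosomal windows with the lowest D. The median D of X windows was -0.174, with median contrasts of 0.267 in haploid ESC and 0.536 in sperm. The 3 windows lay from 38086001 to 38088000 (D = 0.781), from 22864001 to 22866000 (0.699) and from 17156001 to 17158000 (0.651).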
